A study of Mus musculus with 20 samples.

Results

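C/EBPβ sites were examined at the collagen gene family in 3T3-L1 cells, mouse preadipocytes that become fat cells in culture. The members are the 44 protein-coding genes, of 21896 in the mm10 annotation, whose symbol is Col, a number, the letter a and a number. All peaks with a midpoint inside a member's span or within 50 kb of it were taken, and peaks that overlapped by at least 1 bp were merged into sites. This gave 166 collagen sites out of 23854 sites in all. At least 1 site was found at 38 of the 44 genes, against 61.0% of all protein-coding genes.

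The peaks came from chromatin immunoprecipitation and sequencing (ChIP-seq) with an antibody against C/EBPβ. Both lines carried the LAP isoform of C/EBPβ with an HA tag under doxycycline control. In one (WT) the protein was wild type and in the other (Mut) its poly(ADP-ribosyl)ation sites were mutated. Confluent, contact-inhibited cells of both lines received vehicle (WT −Dox and Mut −Dox) or 1 µg/ml doxycycline for 8 h (WT +Dox and Mut +Dox). WT cells given the PARP inhibitor BYK204165 for 1 h before doxycycline (WT +Dox +BYK) made up the remaining condition. Uninduced cells carry the transgene too. The cells' own C/EBPβ is seen by the same antibody, so a peak cannot be assigned to the induced protein. There is 1 peak list per condition for 2 ChIP libraries, with no value per replicate. No difference given here has a replicate check, no test across replicates was possible, and the 95% intervals printed cover only the error of counting. The depth behind the lists is unknown. Each peak has a score, the authors' own value with no named scale, so ranks by score are read within a list only. The lists differ in length, so ranks come with the list's length or a percentile (the share of its peaks scoring no higher). Where 5 values follow each other, their order is WT and Mut cells without doxycycline (uninduced), WT and Mut cells with it (induced), and the WT +Dox +BYK list (the inhibitor). RNA is not analysed here, so neither the cell type nor the expression of any collagen could be checked.

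Collagens are trimeric proteins of the extracellular matrix whose chains wind into a triple helix. Fibrillar collagens build the fibres of connective tissue, and type IV collagen builds the networks of basement membranes. Type VI forms beaded microfilaments and is abundant around fat cells. Fibril-associated collagens with interrupted helices (FACIT) sit on the fibre surface, multiplexins lie at basement membranes, and transmembrane collagens are anchored in the cell surface. The transcription factor C/EBPβ works in the first steps of fat cell differentiation, during which a fibroblast-like matrix gives way to one rich in basement membrane.

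Promoter sequence is shown first, because the sites lay mostly away from it. RefSeq promoter windows (GRCm38.p6, the coordinates of mm10; 250 bases before to 50 after the start) were at hand for 35 of the 44 genes, as 38 windows. Windows were not at hand for Col1a1, Col2a1, Col4a3, Col5a2, Col9a3, Col12a1, Col14a1, Col22a1 and Col26a1. No window of the 35 genes was overlapped by a peak of any list, against 8.41% of protein-coding genes with a window. A count of 0 among 35 genes allows a share of up to 8.57% (3 of 35), close to that value. The 5 windows with a peak within 1 kb are printed 5′ to 3′ on the gene's own strand. They lie at chr10:76725995-76726294 (Col6a1, minus strand), chr8:11312777-11313076 (Col4a1, minus), chr8:11312555-11312854 (Col4a2, plus), chr16:57754688-57754987 (Col8a1, minus) and chr10:61979059-61979358 (Col13a1, minus). Capitals mark matches to a searched motif.
Col6a1: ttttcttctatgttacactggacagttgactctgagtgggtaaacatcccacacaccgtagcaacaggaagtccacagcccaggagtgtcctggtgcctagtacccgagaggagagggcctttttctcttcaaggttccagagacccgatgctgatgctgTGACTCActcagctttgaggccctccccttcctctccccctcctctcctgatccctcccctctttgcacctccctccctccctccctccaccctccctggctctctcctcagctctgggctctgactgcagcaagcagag
Col4a1: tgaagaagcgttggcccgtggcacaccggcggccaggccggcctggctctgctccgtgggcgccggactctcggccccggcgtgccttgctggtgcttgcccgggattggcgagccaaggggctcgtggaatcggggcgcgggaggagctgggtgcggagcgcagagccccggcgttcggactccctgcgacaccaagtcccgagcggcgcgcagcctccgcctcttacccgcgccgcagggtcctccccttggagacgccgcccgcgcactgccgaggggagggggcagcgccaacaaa
Col4a2: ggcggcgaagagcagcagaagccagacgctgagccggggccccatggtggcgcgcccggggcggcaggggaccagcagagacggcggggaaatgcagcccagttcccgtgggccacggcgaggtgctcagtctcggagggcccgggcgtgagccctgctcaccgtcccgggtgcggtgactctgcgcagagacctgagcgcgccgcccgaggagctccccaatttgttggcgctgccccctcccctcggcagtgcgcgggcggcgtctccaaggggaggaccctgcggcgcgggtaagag
Col8a1: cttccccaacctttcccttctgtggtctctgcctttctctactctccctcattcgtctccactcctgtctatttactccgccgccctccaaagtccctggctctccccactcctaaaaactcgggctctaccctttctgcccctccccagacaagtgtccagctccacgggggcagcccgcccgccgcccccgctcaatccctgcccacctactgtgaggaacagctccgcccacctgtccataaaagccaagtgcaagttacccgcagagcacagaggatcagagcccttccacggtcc
Col13a1: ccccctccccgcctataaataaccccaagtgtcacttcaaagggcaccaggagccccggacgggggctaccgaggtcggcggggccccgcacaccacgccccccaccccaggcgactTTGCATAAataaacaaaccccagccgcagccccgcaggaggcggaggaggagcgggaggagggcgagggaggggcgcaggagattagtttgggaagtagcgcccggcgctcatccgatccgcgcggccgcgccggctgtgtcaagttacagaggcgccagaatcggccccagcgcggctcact

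Matches were counted on both strands for 4 motifs: the C/EBP palindrome TTGCGCAA, the looser C/EBP form TTGCNNAA (which contains the palindrome), the C/EBP and ATF composite TGATGCAA, and the AP-1 site TGANTCA. Of the 38 collagen windows, 3 held TTGCNNAA (Col13a1, Col4a6 and 1 of the 2 windows of Col6a2), where 10.8% of all 32851 windows did. The AP-1 motif was in 1 of them, that of Col6a1, 90 bases before the start, against 7.81% of all windows. TTGCGCAA and TGATGCAA were in 0 of the collagen windows and in 0.183% and 0.895% of all windows. A match describes letters only and is not evidence of binding. The nearest peak to the Col6a1 window lay 242 bp away, at a site (chr10:76726536-76727466) that was present in all 5 lists. The nearest peaks to the windows of Col4a2 (378 bp) and Col4a1 (600 bp), which overlap each other on opposite strands, belonged to a site of WT +Dox +BYK alone. Col8a1 had its nearest peak 395 bp away in Mut +Dox alone, and Col13a1 had one 904 bp away in WT +Dox +BYK alone.

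The sites were thus mostly distant from gene starts. Of the 166 sites, 84 (50.6%, Wilson interval 43.1 to 58.1) had their midpoint inside a collagen gene. Inside any protein-coding gene lay 61.4% of the collagen sites (53.9 to 68.5), close to the 62.2% of all sites near coding genes. A collagen start lay within 1 kb of 2 sites, those of Col6a1 and Col8a1. Measured against the starts of all protein-coding genes, 8 collagen sites (4.82%) lay within 1 kb of one, compared with 9.04% of the 18519 sites near coding genes. That share rests on 8 sites and has no interval, and windows were not matched for the number of starts they hold. Outside the genes, 36 sites lay on the 5′ side of a single member, 32 on the 3′ side and 4 between a pair of members, while 10 belong to genes without a start in the table. Another protein-coding gene was nearer than any collagen for 32 sites. Both sites of Col27a1 are of that kind: they lie 0.095 kb from Orm1 and 0.412 kb from Orm2, which encode acute phase proteins of plasma. So is every site of Col2a1, Col4a3, Col7a1, Col8a2, Col9a2, Col10a1 and Col20a1. The highest-scoring Col1a1 site lay 2.81 kb from Sgca, and 4 of the 8 Col16a1 sites lay inside Pef1.

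The collagen windows were more densely occupied than those of coding genes at large. They held 18.0 merged sites per Mb over 9.21 Mb, where the windows of all protein-coding genes held 11.0 over 1686 Mb. The densities were 9.12 and 5.05 in uninduced WT, 6.08 and 3.21 in uninduced Mut, 10.1 and 5.78 in induced WT and 14.2 and 8.09 in induced Mut cells, and 13.6 and 8.50 with the inhibitor. The collagen value was thus the higher of the pair in each of the 5 lists, the uninduced ones included. The lists share sites and are not independent, and the coding windows were not matched for gene length. Collagen genes are also long, with a median span of 114 kb against 17.1 kb, and had a median of 3 merged sites against 1. Their sites were unevenly spread: the 16 genes with 5 or more merged sites held 125 of the 166. No site in any list was found at Col6a4, Col9a1, Col9a3, Col19a1, Col25a1 and Col26a1.

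**Figure D1:**
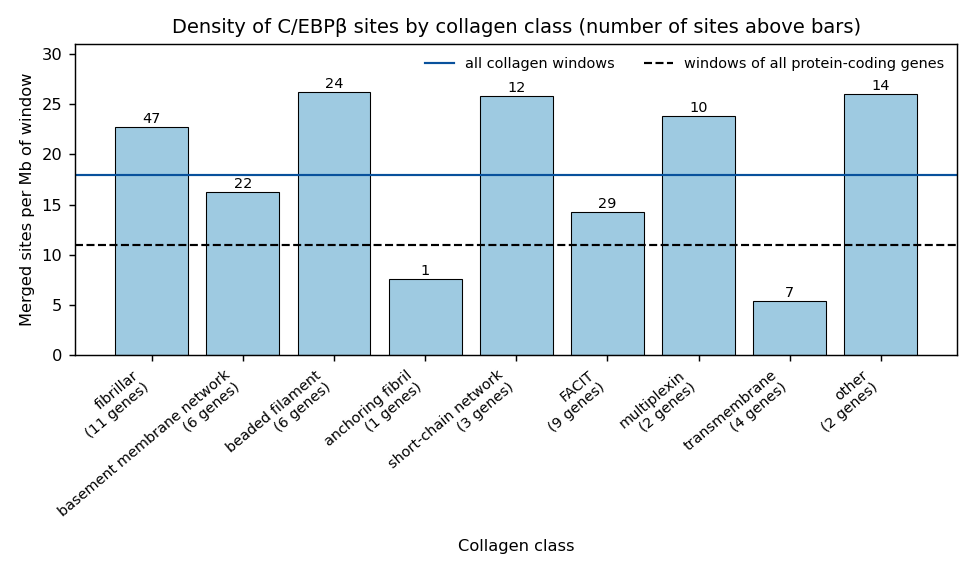
Bars give merged C/EBPβ sites per Mb of window (gene spans with 50 kb on either side) for the 9 collagen classes, with the number of sites above each bar and the number of genes in the label. The solid line is the value of all collagen windows (18.0) and the dashed line that of all protein-coding genes (11.0). Anchoring fibril and transmembrane collagens lie below the dashed line.

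By class, the beaded filament genes had 26.2 merged sites per Mb, the short-chain network genes 25.8, the multiplexins 23.8 and the fibrillar genes 22.7. Basement membrane genes had 16.3 and FACIT genes 14.3. The transmembrane class had 5.38 and the single anchoring fibril gene, Col7a1, 7.62. The class of Col26a1 and Col28a1 reached 26.0 through Col28a1 alone. Densities of the small classes rest on few genes.

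**Figure D2:**
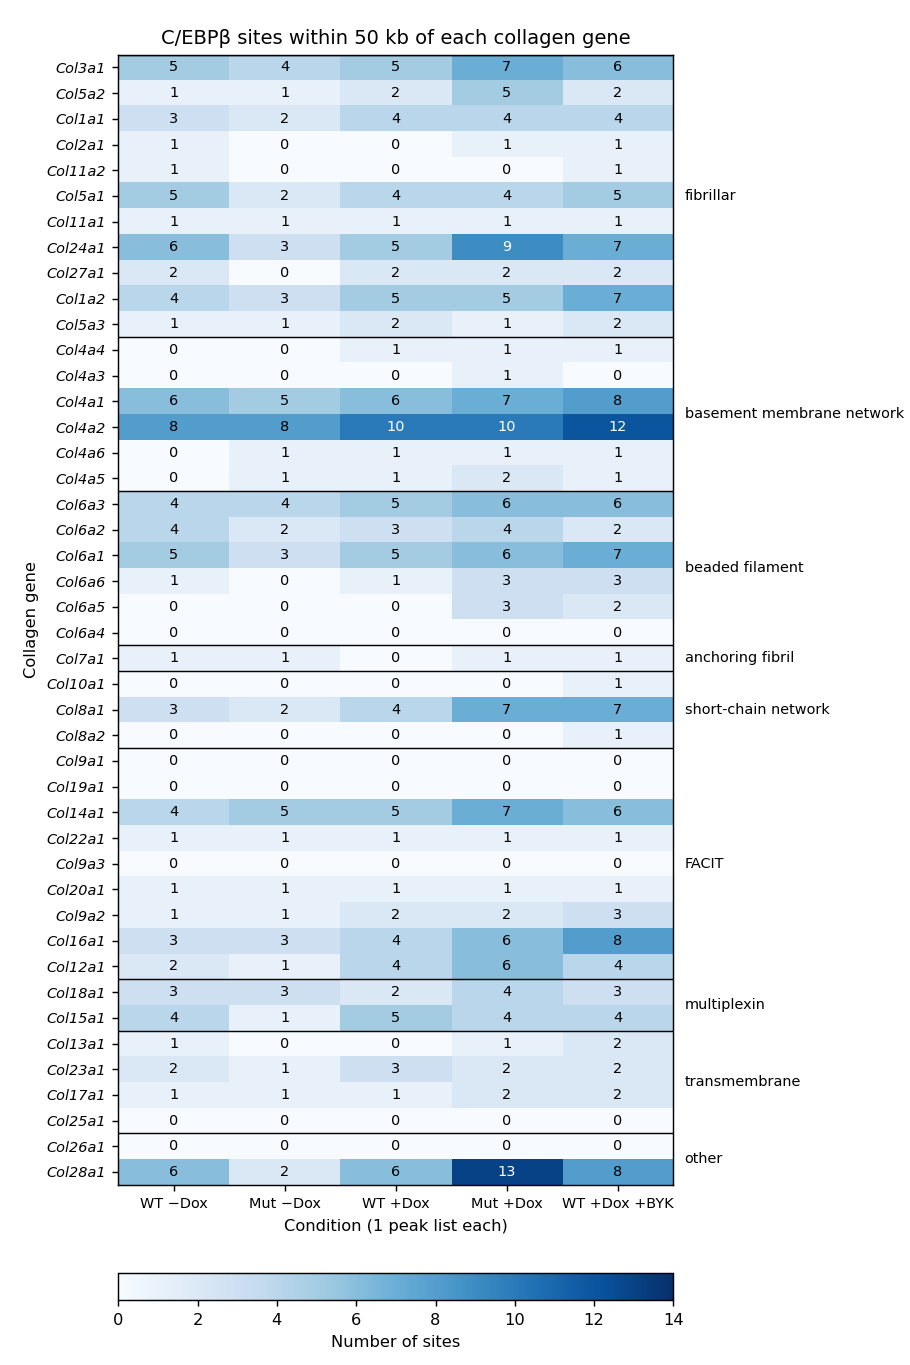
Each cell gives the number of C/EBPβ sites within 50 kb of a collagen gene (rows, grouped by class) in the peak list of a condition (columns), with darker blue for more sites. Col28a1 has 13 sites in induced Mut cells and 6 in induced WT cells, and Col4a2 has 8 to 12 in every list. Sites shared by neighbouring genes are counted for both.

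Among fibrillar genes, Col1a1 and Col1a2 encode the chains of type I collagen, the main protein of connective tissue fibres. Col1a1 (chromosome 11, 94936224 to 94953042) had 3 sites in uninduced WT, 2 in uninduced Mut, 4 in induced WT and 4 in induced Mut cells, and 4 with the inhibitor, and none of its sites lay inside the gene. Its highest-scoring site (chr11:94978623-94979659) was in all 5 lists, at ranks 140, 217, 101, 651 and 345 by score. The percentiles there were 98.7, 96.9, 99.2, 96.4 and 98.1. A site 1.44 kb outside the gene (chr11:94934351-94935211) was in the 3 lists with doxycycline and absent from both without. Col1a2 (chromosome 6, 4505618 to 4541543) had 4, 3, 5, 5 and 7 sites in the same order. Of its 8 merged sites, 7 lay outside the gene, and the highest-scoring of them was 82.9 kb downstream of the start, where Casd1 is the nearer gene. The site 2.28 kb upstream of the Col1a2 start was in WT +Dox +BYK alone, with a score of 67.65.

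Col3a1 encodes type III collagen, and Col5a2, its neighbour on chromosome 1, a chain of type V collagen, which nucleates fibrils. Col3a1 had 5 sites in uninduced WT, 4 in uninduced Mut, 5 in induced WT and 7 in induced Mut cells, and 6 with the inhibitor. Its site 2.19 kb upstream of the start was held by both Mut lists and by WT +Dox +BYK but by neither of the other lists. Col5a2 had 1, 1, 2, 5 and 2 sites, and 3 of its 4 sites inside the gene were in Mut +Dox alone, with scores of 54.75 to 65.31 where the list's lowest score was 50.01. The 2 genes share a site downstream of Col3a1 that was in all 5 lists.

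Col5a1, which encodes the other main chain of type V, carried the best-ranked collagen site of the lists WT −Dox, Mut −Dox and WT +Dox. The site (chr2:27858139-27859378) lay 27.7 kb upstream of the start and ranked 42 of 10959 in uninduced WT, 8 of 6898 in uninduced Mut, 27 of 12384 in induced WT and 60 of 17816 in induced Mut cells, and 133 of 18371 with the inhibitor. The gene had 5, 2, 4, 4 and 5 sites. A site 2.5 kb downstream of the start was in the 3 lists with doxycycline and in neither without. Col24a1, a minor fibrillar collagen of bone and cornea, had 6, 3, 5, 9 and 7 sites over its 260 kb span. Its site 24.2 kb upstream was in all 5 lists, at rank 399 in WT −Dox (percentile 96.4) and 150 in Mut −Dox (97.8). The remaining fibrillar genes had few sites: Col27a1 and Col5a3 had 2 and 3 merged sites, and the cartilage genes Col2a1, Col11a1 and Col11a2 had 1 each.

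Col4a1 and Col4a2 encode the chains of the type IV collagen found in most basement membranes and are transcribed in opposite directions from neighbouring starts. Col4a2 (chromosome 8, 11312805 to 11449287) had 8 sites in uninduced WT, 8 in uninduced Mut, 10 in induced WT and 10 in induced Mut cells, and 12 with the inhibitor. Col4a1 (11198423 to 11312889) had 6, 5, 6, 7 and 8, and the 2 genes share 6 sites. The Col4a1 site 62.7 kb downstream of its start had ranks 910, 1668, 222, 843 and 145 (percentiles 91.7, 75.8, 98.2, 95.3 and 99.2). Of the 14 merged sites of Col4a2, 7 were in all 5 lists. The site 72.4 kb downstream of the Col4a2 start (chr8:11384152-11386218) was the best-ranked collagen site of WT +Dox +BYK, at rank 52, ranking 322 and 408 in the induced Mut and WT lists and 1351 and 2232 in the uninduced ones. Its percentiles were 79.6 in uninduced WT, 80.4 in uninduced Mut, 96.7 in induced WT and 98.2 in induced Mut cells, and 99.7 with the inhibitor. The other type IV pairs were sparse. Col4a4 had 2 merged sites and Col4a3 had 1, with peaks in induced lists only. Col4a5 and Col4a6 share a site that was in every list but WT −Dox.

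Col6a1, Col6a2 and Col6a3 encode the classical chains of type VI collagen. Col6a3 (chromosome 1, 90766860 to 90844001) had 4 sites in uninduced WT, 4 in uninduced Mut, 5 in induced WT and 6 in induced Mut cells, and 6 with the inhibitor. Of its 9 merged sites, 3 inside the gene were in WT +Dox +BYK alone, within 9.04 kb of the start. Among them lay a site 5.42 kb downstream of the start (chr1:90837899-90839212) that every list but WT +Dox +BYK held. Col6a1 had 5, 3, 5, 6 and 7 sites, none inside the gene, and Col6a2 had 4, 2, 3, 4 and 2. The 2 genes lie on chromosome 10 and share a pair of sites between them, both in all 5 lists. The first (chr10:76664400-76665693), 41.4 kb upstream of Col6a2, ranked 216 in uninduced WT, 185 in uninduced Mut, 361 in induced WT and 264 in induced Mut cells, and 838 with the inhibitor. In the same order its percentiles were 98.0, 97.3, 97.1, 98.5 and 95.4. Col6a5 and Col6a6, later-described chains that can replace the Col6a3 chain, had 0 and 1 site in uninduced WT, 0 and 0 in uninduced Mut, 0 and 1 in induced WT and 3 and 3 in induced Mut cells, and 2 and 3 with the inhibitor. They share 1 site, counted for both. The Col6a5 sites scored 52.55 to 76.73 in Mut +Dox, where the list's lowest score was 50.01. None of those was among the 6898 highest-scoring peaks of that list.

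Col8a1 encodes a short-chain collagen of vessels and the cornea. It had 3 sites in uninduced WT, 2 in uninduced Mut, 4 in induced WT and 7 in induced Mut cells, and 7 with the inhibitor. Of its 10 merged sites, 1 was in all 5 lists. Col8a2 and Col10a1, the other members of the class, each had 1 site, in WT +Dox +BYK alone and with scores of 54.34 and 54.59.

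Among FACIT genes, Col14a1 and Col12a1 encode large collagens on the surface of type I fibres. Col14a1 had 4, 5, 5, 7 and 6 sites, 7 of its 8 merged sites inside the gene. Col12a1 had 2, 1, 4, 6 and 4, with none of its 8 merged sites in all 5 lists. Col16a1 had 3, 3, 4, 6 and 8. Its site 2.68 kb downstream of the start was in all 5 lists, whereas 5 of the others lay beyond its 3′ end. Col9a2 had 3 merged sites, and Col20a1 and Col22a1 had 1 each, present in all 5 lists for both genes. Those of Col9a2 lay nearer to Smap2 or Zmpste24, and that of Col20a1 nearer to Nkain4.

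The multiplexin genes Col15a1 and Col18a1 encode collagens of the basement membrane zone, Col18a1 being the source of endostatin. Col15a1 had 4 sites in uninduced WT, 1 in uninduced Mut, 5 in induced WT and 4 in induced Mut cells, and 4 with the inhibitor, and Col18a1 had 3, 3, 2, 4 and 3. The transmembrane genes Col13a1, Col17a1 and Col23a1 had 2, 2 and 3 merged sites. A site over the 3′ end of Col13a1 (chr10:61837780-61838666) was in uninduced WT and induced Mut cells and with the inhibitor. Col7a1, the collagen of anchoring fibrils, had 1 site, which every list but WT +Dox held.

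Col28a1, which encodes a collagen with von Willebrand factor A domains, had the greatest number of sites of any collagen in Mut +Dox. It had 6 in uninduced WT, 2 in uninduced Mut, 6 in induced WT and 13 in induced Mut cells, and 8 with the inhibitor. The site inside the gene 28.6 kb downstream of the start (chr6:8162734-8165391) was the best-ranked collagen site of Mut +Dox, at rank 42 of 17816. It ranked 160 of 18371 in WT +Dox +BYK, 306 of 12384 in WT +Dox, 1526 of 6898 in Mut −Dox and 1970 of 10959 in WT −Dox. Among the 14 merged sites of the gene, 2 were in all 5 lists, the other lying 1.02 kb beyond the 3′ end at ranks 3191, 1542, 736, 484 and 566. The percentiles of that site were 70.9, 77.7, 94.1, 97.3 and 96.9.

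**Figure D3:**
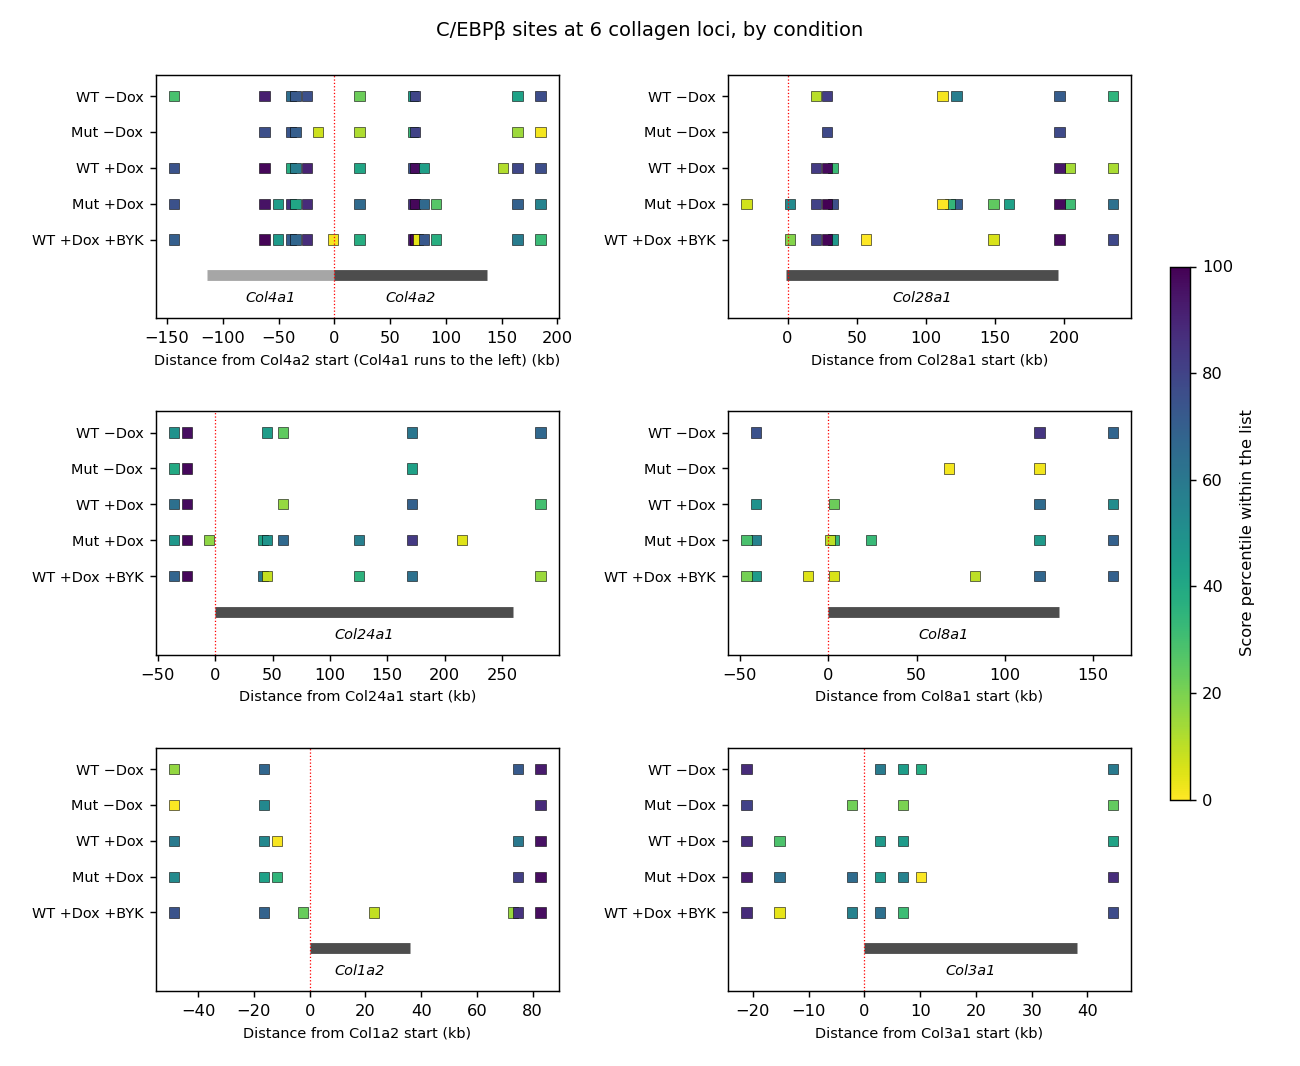
Squares mark C/EBPβ sites at 6 collagen loci against the distance from the gene's start in kb (red dotted line), with 1 row per condition. Colour gives the percentile of the peak's score within its own list and grey bars give the gene spans. At Col1a2 the sites of high percentile lie beyond the gene's end, at Col24a1 the site with the highest percentile lies upstream of the start, and Col28a1 has most squares in Mut +Dox.

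The family was then compared between conditions. Shares of genes with more or fewer sites are given beside those of all coding genes, without matching for gene length or site number. Collagen genes were longer and had more merged sites, so their counts had more room to differ. The comparison of WT −Dox with WT +Dox asks which C/EBPβ sites appear or go after the wild-type protein is induced. The collagen sites numbered 84 and 93. More sites in WT +Dox were counted at 16 of 34 collagen genes with a site in either list (35.6% among all coding genes) and fewer at 8 (22.0% among all). Col4a2 and Col12a1 had 2 more each, which was the greatest difference. Of the 43 collagen sites found in 1 of these lists only, 26 (60.5%, exact interval 44.4 to 75.0) were in WT +Dox, where the value over all sites was 60.2%.

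Induction of the mutant gave the widest gap. Collagen sites numbered 56 in Mut −Dox and 131 in Mut +Dox, with more at 29 of 35 genes (72.7% among all coding genes) and fewer at 0 (3.10% among all). Col28a1 had 11 more, Col24a1 6 more, Col8a1 and Col12a1 5 more and Col5a2 4 more. Of the 81 sites in 1 list only, 78 (96.3%, 89.6 to 99.2) were in Mut +Dox, against 95.4% over all sites. By class, fibrillar genes had 16 and 38 sites, FACIT genes 12 and 23, beaded filament genes 7 and 19 and basement membrane genes 10 and 17. Fewer sites with doxycycline in WT together with more in Mut were counted at 6 of 36 collagen genes (12.1% among all coding genes).

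WT +Dox and Mut +Dox were set against each other to compare the intact protein with the one whose PARylation sites are mutated. Each protein is carried by its own line, so the mutation cannot be told apart from other differences between the lines. Collagen sites numbered 93 and 131, with more in Mut +Dox at 21 of 35 genes (45.1% among all coding genes) and fewer at 3 (13.5% among all). Col28a1 had 7 more, Col24a1 4 more, and Col5a2, Col6a5 and Col8a1 3 more each. The genes with fewer were Col5a3, Col15a1 and Col23a1, by 1 site each. Of the 54 sites in 1 list only, 46 (85.2%, 72.9 to 93.4) were in Mut +Dox, against 82.2% over all sites. Restricted to sites whose nearest coding gene is a collagen, the counts were 40 in Mut +Dox only and 2 in WT +Dox only, or 95.2% (83.8 to 99.4). The all-sites value lies outside this interval, but it covers every site and was not restricted by position. Neighbouring sites are not independent, and this setting is 1 of 7 alternatives, each applied to 6 comparisons.

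The inhibitor comparison, within the WT line, asks the same of PARP activity. Collagen sites numbered 93 in WT +Dox and 125 in WT +Dox +BYK, with more at 23 of 37 genes (52.3% among all coding genes) and fewer at 3 (8.86% among all). Col16a1 had 4 more, Col8a1 3 more, and Col1a2, Col4a1, Col4a2, Col6a1, Col6a5, Col6a6, Col13a1, Col24a1 and Col28a1 2 more each. Col6a2, Col15a1 and Col23a1 had 1 fewer each. Of the 60 sites in 1 list only, 46 (76.7%, 64.0 to 86.6) were in WT +Dox +BYK, against 84.8% over all sites. This comparison and that of the mutant use the same WT +Dox list.

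Mut +Dox and WT +Dox +BYK were close in number, with 131 and 125 collagen sites. WT +Dox +BYK had more at 12 of 38 genes (35.2% among all coding genes) and fewer at 11 (21.5% among all). Col28a1 had 5 fewer with the inhibitor, Col5a2 3 fewer and Col6a2, Col12a1 and Col24a1 2 fewer each, while Col16a1, Col1a2 and Col4a2 had 2 more each. Of the 60 sites in 1 list only, 27 (45.0%, 32.1 to 58.4) were in WT +Dox +BYK, against 52.7% over all sites. With sites whose nearest coding gene is a collagen the counts were 18 and 31, or 36.7% (23.4 to 51.7). Sites inside collagen genes alone gave 34.3% (19.1 to 52.2). In the uninduced lines, collagen sites numbered 84 in WT −Dox and 56 in Mut −Dox. Mut −Dox had more at 3 of 33 genes (6.03% among all coding genes) and fewer at 18 (52.8% among all), with Col28a1 4 fewer and Col5a1, Col15a1 and Col24a1 3 fewer each. Of 42 sites in 1 list only, 7 (16.7%, 6.97 to 31.4) were in Mut −Dox, against 13.2% over all sites.

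**Figure D4:**
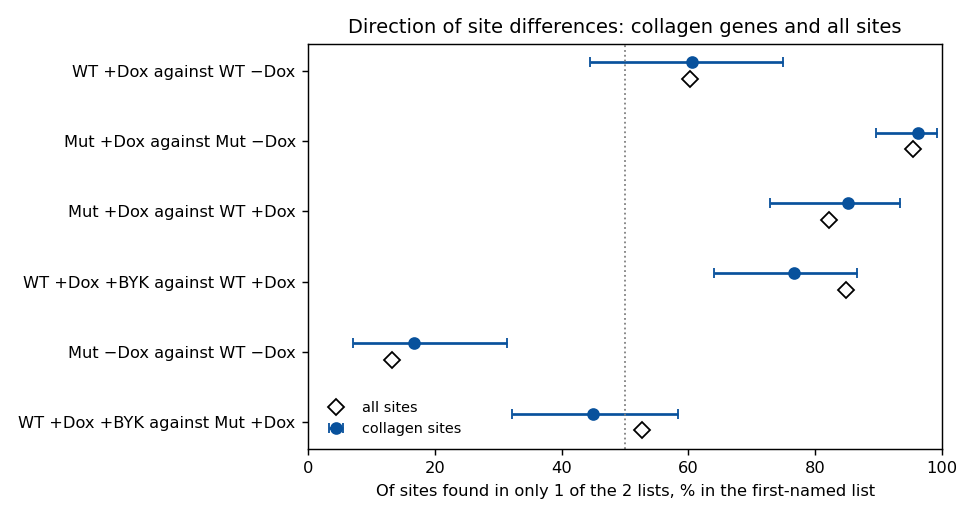
For each of 6 comparisons, circles give the percentage of collagen sites found in only 1 of the 2 lists that belong to the first-named list, with exact 95% intervals, and diamonds give the same over all sites. The dotted line marks 50%. Each diamond lies within the interval of its circle, from 16.7 against 13.2 between the uninduced lines to 96.3 against 95.4 for induction of the mutant.

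With the 50 kb window, the value over all sites lay within the collagen interval in all 6 comparisons. It lay outside in the 3 cases given above for nearest genes and for sites inside genes. These came from 6 comparisons read under 7 alternatives. The nearest-gene and inside-gene cases of WT +Dox +BYK against Mut +Dox draw on overlapping sites. In all 3 cases the collagen sites were restricted by position and the sites of the all-sites value were not, so the sets are unlike. The list lengths moved with these differences, at 10959 peaks in uninduced WT, 6898 in uninduced Mut, 12384 in induced WT and 17816 in induced Mut cells, and 18371 with the inhibitor. Collagen sites made up 0.773%, 0.816%, 0.757%, 0.737% and 0.686% of the sites of these lists. With each list shortened to its 6898 highest-scoring peaks, the collagen sites numbered 57, 56, 57, 58 and 54. Such trimming takes away a general surplus by construction, and the part of list length in the collagen differences was not tested further. At that length Col28a1 had 6 sites in induced Mut cells, 3 in induced WT cells and 4 with the inhibitor, while Col24a1 had 3 in each of these lists and Col8a1 had 1, 3 and 2.

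The sites were also compared by the number of lists that held them. A peak in all 5 lists was found at 44 collagen sites (26.5%, Wilson interval 20.4 to 33.7), against 21.8% of all sites, and 43 (25.9%, 19.8 to 33.1) were in 1 list only, against 30.7%. Among the 44 were 15 of the 47 merged sites of fibrillar genes, 8 of 22 of basement membrane genes and 8 of 29 of FACIT genes. Beaded filament genes had 5 of 24 and multiplexin genes 3 of 10. Of the 43, 18 were in Mut +Dox alone and 18 in WT +Dox +BYK alone, with 3 in WT +Dox, 2 in WT −Dox and 2 in Mut −Dox. Those of Mut +Dox had a median score of 63.7 (52.96 to 93.42) and those of WT +Dox +BYK a median of 56.2 (50.08 to 90.65), where the lists' medians over all peaks were 107 and 106. Low scores were general to sites of 1 list: the median percentile was 19.3 for these collagen sites and 17.9 for all such sites in Mut +Dox, and 9.55 and 17.8 in WT +Dox +BYK. The 44 shared sites had median scores of 205 and 192 in the same lists. Their median percentile was below that of all sites held by 5 lists, at 64.3 against 74.3 in uninduced WT, 49.9 against 60.3 in uninduced Mut, 69.3 against 74.2 in induced WT and 75.7 against 82.3 in induced Mut cells, and 74.3 against 82.5 with the inhibitor. Over all collagen peaks of a list, the median percentile was 51.7 in uninduced WT, 42.2 in uninduced Mut, 53.7 in induced WT and 55.7 in induced Mut cells, and 54.0 with the inhibitor.

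**Figure D5:**
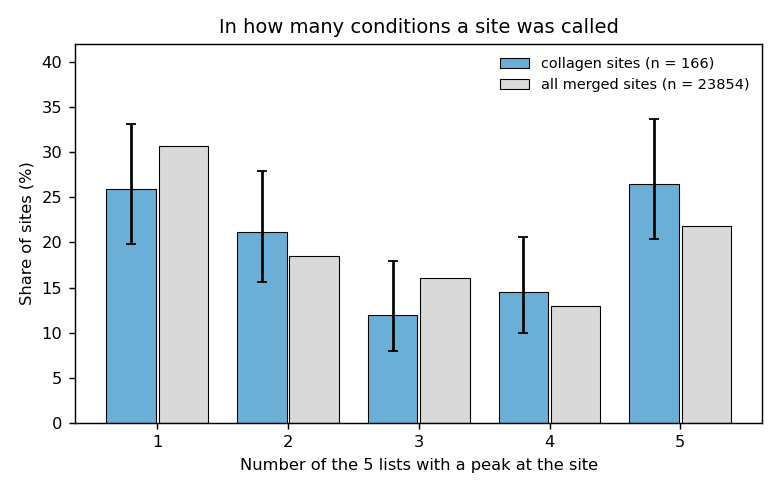
Bars give the share of collagen sites (blue, with Wilson 95% intervals) and of all merged sites (grey) against the number of the 5 lists that held a peak at the site. Sites of all 5 lists made up 26.5% of collagen sites and 21.8% of all sites, and the interval of the collagen share includes the latter.

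Genes that act on collagen chains were read beside the family. The 30 listed genes cover hydroxylation and glycosylation, chaperoning and export, removal of propeptides, crosslinking and the collagen receptors, and 24 of them had a site, where 61.0% of all coding genes did. Their sites numbered 47 in uninduced WT, 26 in uninduced Mut, 50 in induced WT and 69 in induced Mut cells, and 81 with the inhibitor. Between WT +Dox and Mut +Dox, 13 of 23 genes had more (45.1% among all coding genes) and 3 fewer (13.5%). Between WT +Dox and WT +Dox +BYK, 17 of 24 had more (52.3%) and 2 fewer (8.86%). Lox, the lysyl oxidase that crosslinks fibres, had 6, 4, 4, 7 and 7 sites. Loxl3 had 3, 2, 5, 5 and 7, and P3h2, a prolyl hydroxylase, had 5, 2, 6, 8 and 7. Tll1, a propeptide protease, had 2, 0, 0, 5 and 3, and Adamts2, the protease of procollagen amino ends, had 3, 3, 4, 5 and 8. The receptor gene Ddr2 had 4, 2, 6, 6 and 8. These genes are examples picked without a set rule. Others also differed by 3 sites in a comparison, among them Loxl1, Loxl2, Plod3, P4ha3 and Ddr1. The alternative settings were run on the collagens only. No site was found at Bmp1, Pcolce, Pcolce2, Adamts3, Crtap and Ppib.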

How the data were processed

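C/EBPβ ChIP and input DNA of 5 conditions were sequenced, with 2 libraries per group and 20 in all. Reads were aligned with Bowtie to mm10 and bedtools was used, per the submitters' processing notes, without versions. The deposited peak lists, 1 per condition, give a score for each peak that is the authors' own value with no named scale; the peak names begin with MACS. The threshold, the use of input and the way libraries were combined are details that the sources used here do not state.

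Peaks were merged into sites and given to genes from RefSeq spans (GRCm38.p6, the coordinates of mm10; 21896 protein-coding genes). Coordinates are 1-based. A list holds a site when it has a peak there. Background values count genes with a site in either list of a comparison, over all protein-coding genes. The code was tested on simulated peaks at known places. The members, classes, lists, motifs and alternatives were chosen with earlier results of these data known. Genes described singly were 12 collagens of fibroblasts and fat tissue, members with 5 or more merged sites, with a difference of 3 or more, or with a site within 1 kb of a gene end, and those with the 5 highest-scoring collagen sites of a list. Other members are named to account for all 44. Alternatives covered the merging rule, score, list length, window and nearest gene. Intervals came from scipy 1.17.1 and figures from matplotlib 3.10.9, with pandas 2.3.3 and numpy 2.4.6 under Python 3.11.15.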

Additional observations from a re-analysis of the deposited data

Results flagged for a closer look

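At 6 of 36 collagen genes (16.7%, against 12.1% of all coding genes with a site in these lists) the number of sites went opposite ways with doxycycline in the 2 lines, fewer in WT and more in Mut, with 1 list per condition, so these differences were not tested. The difference between the changes (Mut minus WT) was 7 sites at Col24a1 (6 to 5 in WT, 3 to 9 in Mut), 3 at Col5a1 (5 to 4 and 2 to 4) and 3 at Col6a2 (4 to 3 and 2 to 4). It was 2 sites each at Col2a1, Col13a1 and Col18a1. The only Col2a1 site lay nearer to Tmem106c. Each of the WT changes is 1 site. In the mutant line the uninduced list is the shorter by 10918 peaks and in the WT line by 1425. With lists of equal length none of the 6 genes went opposite ways: Col24a1 went from 5 to 3 in WT and stayed at 3 in Mut, Col5a1 went from 3 to 4 and from 2 to 4, and Col6a2 stayed at 2 in both. Col18a1 stayed at 2 in WT and went from 3 to 2 in Mut, and Col2a1 and Col13a1 went from 1 to 0 in WT and stayed at 0 in Mut.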

How the results depend on the processing

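Joining peaks only where they overlap by 0.5 of the shorter peak changed none of the collagen counts per list and none of the shares of the 6 comparisons, and a window of 100 kb left these shares between 16.7% and 94.4%, each on the same side of 50. Counts in WT −Dox, Mut −Dox, WT +Dox, Mut +Dox and WT +Dox +BYK, in that order, were 46, 24, 51, 73 and 67 with scores of at least 100, 47, 36, 52, 85 and 74 with a window of 10 kb, and 37, 29, 41, 68 and 57 inside gene spans. These settings take fewer peaks or less sequence by construction. At equal list length, the counts of WT +Dox, Mut +Dox and WT +Dox +BYK were 57, 58 and 54. There the share of sites in the first-named list was 52.6% for Mut +Dox against Mut −Dox, 51.9% for Mut +Dox against WT +Dox and 48.5% for Mut −Dox against WT −Dox, and that of WT +Dox +BYK against WT +Dox turned from 76.7% to 42.9% (over 21 sites). Mut +Dox against WT +Dox gave 94.6% within 10 kb, 93.5% inside gene spans and 95.2% with nearest genes. At equal length differences also turned for Col8a1 (-1 in Mut +Dox against Mut −Dox, -2 in Mut +Dox against WT +Dox, -1 with the inhibitor), Col16a1 (-1 in Mut +Dox against Mut −Dox, -1 with the inhibitor) and Col12a1 (-1 in Mut +Dox against Mut −Dox). Of the 24 differences of 3 sites or more, 22 were smaller than 3 at equal length, 17 with scores of at least 100 (5 of them at 0, among them Col8a1 and Col6a5 in Mut +Dox against WT +Dox), 14 inside gene spans and 13 within 10 kb. The cause was not tested. No paired analysis was possible because each condition has 1 peak list without replicate numbers, and for the same reason no replicate could be left out.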
